A study of Mus musculus with 16 samples.

Results

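The 8 genes described here encode enzymes and enhancers that finish collagen and elastin outside the cell: the lysyl oxidases Lox, Loxl1, Loxl2, Loxl3 and Loxl4, the procollagen C-proteinase Bmp1, and its enhancers Pcolce and Pcolce2. They were taken by gene symbol from a table of 54532 genes, and all 8 were found once. The table holds RNA sequencing of whole inguinal white adipose tissue (iWAT), the subcutaneous fat of the groin, in 16 libraries from male mice that entered experiments at 8 to 10 weeks of age. Has2_TG are Apn-Has2 mice, in which the adiponectin promoter drives the doxycycline-dependent activator rtTA in adipocytes and rtTA switches on the hyaluronan synthase Has2. PH20_TG are Apn-PH20 mice, in which the same activator switches on Spam1, the gene of the hyaluronidase PH20. Has2_WT and PH20_WT are the littermate controls of each line, which carry Apn-rtTA without the responder transgene although their genotype is labelled WT. Every group had 4 libraries, and all mice, controls included, were fed doxycycline at 200 mg/kg in normal chow over 5 days. The study asked how more or less hyaluronan, a large polysaccharide of the extracellular matrix, changed gene expression in this tissue.

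Fibrillar procollagen is secreted with a propeptide at each end, and it assembles into fibrils only after these are cut off. Bmp1, a metalloproteinase of the tolloid family, cuts the C-propeptide, and Pcolce and Pcolce2 bind procollagen and speed that cut without being proteases themselves. Lysyl oxidases are copper enzymes that oxidise lysine residues of collagen and elastin, and the aldehydes that form join neighbouring chains in covalent cross-links. Lox is secreted as a proenzyme that Bmp1 activates, Loxl1 is known for its part in elastic fibres, and Loxl2, Loxl3 and Loxl4 form a subgroup with scavenger receptor domains. In adipose tissue these genes are known chiefly as products of fibroblasts and adipocyte progenitors. Because the tissue was sequenced in bulk, a change in the number of cells of a type and a change of RNA per cell cannot be told apart.

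The RefSeq promoter table (GRCm38.p6) holds a start site for 3 of the 8 genes, and the bases before it are shown because both C-proteinase enhancers and a lysyl oxidase are among them. The lines run 5′ to 3′ on the strand of the gene and stop before the first base that GENCODE M21 annotates as exon. Capitals mark a GC box or a Smad box. The intervals are chr5:137611488-137611654 on the minus strand for Pcolce, chr9:95637378-95637600 on the plus strand for Pcolce2 and chr19:42612814-42613056 on the minus strand for Loxl4. The Pcolce interval lies between exons within the annotated span of the gene, and the other 2 lie upstream of theirs.
Pcolce: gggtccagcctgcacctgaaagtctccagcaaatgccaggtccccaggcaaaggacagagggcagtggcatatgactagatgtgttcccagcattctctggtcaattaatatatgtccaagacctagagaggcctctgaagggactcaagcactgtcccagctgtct
Pcolce2: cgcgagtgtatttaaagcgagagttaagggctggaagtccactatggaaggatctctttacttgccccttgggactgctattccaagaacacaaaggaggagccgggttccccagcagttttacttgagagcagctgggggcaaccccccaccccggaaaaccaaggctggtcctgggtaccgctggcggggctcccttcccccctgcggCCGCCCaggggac
Loxl4: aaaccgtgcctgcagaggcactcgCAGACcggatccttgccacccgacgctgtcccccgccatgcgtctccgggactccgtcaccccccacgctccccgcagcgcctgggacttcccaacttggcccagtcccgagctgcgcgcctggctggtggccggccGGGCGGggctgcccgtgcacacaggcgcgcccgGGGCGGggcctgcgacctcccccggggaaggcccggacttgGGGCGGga

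Over the 250 bases before the start, GC content was 58.8% in Pcolce, 61.2% in Pcolce2 and 76% in Loxl4, against a median of 52.4% over 32851 promoters of the same length. Loxl4 held 27 CpG dinucleotides, Pcolce2 10 and Pcolce 5, against a median of 6. The GC box GGGCGG, on either strand, occurred 3 times before Loxl4, with first bases at -89, -56 and -15 from the start, and once before Pcolce2, at -40. It also occurred once before Pcolce, at -60, within an exon of a longer transcript and so not shown. Of all promoters, 32.7% held this motif. The Smad box CAGAC was found only before Loxl4 and is in 42.2% of all promoters. The TATA element TATAAA (12.4% of all promoters), the AP-1 element TGACTCA (4.46%) and the TEAD element GGAATG (12.6%) were in none of the 3 windows on either strand. A match is a match of letters and not a measured site, and these motifs do not overlap one another here.

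The genes lie on 6 chromosomes of the mouse genome GRCm38. Lox (ENSMUSG00000024529) is on chromosome 18 from 52516069 to 52529867, Loxl1 (ENSMUSG00000032334) on chromosome 9 from 58287738 to 58313186, and Loxl2 (ENSMUSG00000034205) on chromosome 14 from 69609068 to 69695834. Loxl3 (ENSMUSG00000000693) is on chromosome 6 from 83034173 to 83052562 and Loxl4 (ENSMUSG00000025185) on chromosome 19 from 42593982 to 42612813. Bmp1 (ENSMUSG00000022098) is on chromosome 14 from 70474558 to 70520234, less than a megabase from Loxl2. Pcolce (ENSMUSG00000029718) is on chromosome 5 from 137605103 to 137613784, and Pcolce2 (ENSMUSG00000015354) on chromosome 9 from 95637601 to 95698096. The values are per gene, over its annotated exons, and whether counting used the strand is not given in the sources used here. The end of Loxl3 shares 1297 bases with Htra2 on the opposite strand, a mitochondrial protease gene whose FPKM of 5.88 to 12.7 exceeded that of Loxl3, so reads of Htra2 may be among those of Loxl3. Pcolce shares 1282 bases with Fbxo24 on its own strand, but Fbxo24 reached an FPKM of only 1.52.

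The unit of the table is FPKM, the fragments of a gene relative to its length and to the size of the library. Between 14421692 and 26751729 reads fell on genes in a library. On this scale per length, Loxl1 was the most abundant of the 8 genes, with a median of 44.5 FPKM over the 16 libraries (22.7 to 87.3). It was followed by Pcolce with a median of 41.6 (20.6 to 67.1), Lox with 20.2 (11.3 to 36.5), Bmp1 with 13.1 (5.84 to 27.8), Pcolce2 with 12.2 (1.54 to 30.2) and Loxl2 with 11.4 (4.86 to 28.6). Loxl3, with a median of 2.32 FPKM (1.27 to 5.73), and Loxl4, with 0.594 (0.151 to 1.91), were the least abundant. Several neighbours in this order did not separate. Bmp1 exceeded Pcolce2 in 10 of 16 libraries and Pcolce2 exceeded Loxl2 in 8 of 16. Loxl1 exceeded Pcolce in 14 libraries and Lox exceeded Bmp1 in 14. In contrast, Pcolce exceeded Lox, Loxl2 exceeded Loxl3 and Loxl3 exceeded Loxl4 in all 16 libraries. The reads behind a value ran from 919 to 3353 in a library for Lox but only from 10 to 160 for Loxl4, so counting error weighs most on Loxl4.

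The lysyl oxidases were not made in equal amounts. In Has2_WT, Loxl1 made up 50.1% ± 7.54 (SD, n = 4) of the summed FPKM of the 5 lysyl oxidases and Lox 34.2% ± 6.93 (SD, n = 4). In Has2_TG, the share of Loxl1 was 58.9% ± 1.61 (SD, n = 4) and that of Lox 22.2% ± 2.28 (SD, n = 4). The sum itself was 59.1 ± 20.6 FPKM (SD, n = 4) in Has2_WT and 113 ± 33.1 (SD, n = 4) in Has2_TG. Loxl4 never exceeded 1.32% of the sum in any library. In PH20_WT and PH20_TG, Loxl1 held 56.5% ± 5.91 and 55.1% ± 4.92, and Lox 26.0% ± 8.60 and 27.0% ± 10.6 (SD, n = 4 in each).

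Facts of the whole series touch these genes in several ways. In a test at an unadjusted threshold of 0.05, 788 of 12606 genes were higher and 473 lower in Has2_TG. In PH20_TG 401 of 12532 were higher and 425 lower. The targeted gene Has2 had 1.86 to 3.24 FPKM in Has2_TG and 0.417 to 0.806 in Has2_WT, which did not overlap, and 0.0990 to 3.32 in PH20_TG. Spam1 had 6 reads in PH20_TG2, 12 in PH20_TG3 and 5 in PH20_TG4 but 0 in PH20_TG1 and in the controls, where up to 3 reads could have been missed by chance. Adipocyte markers such as Adipoq and Plin1 were high in all libraries (summed FPKM of 8 genes 4253 to 10155), and 0 of 8 passed the test in either study. Genes of adipocyte progenitors had a summed FPKM of 526 to 756 in Has2_TG and 173 to 359 in Has2_WT, with 6 of 8 higher in Has2_TG. In the PH20 study their sum was 238 to 767 in PH20_WT, and 739, 161, 199 and 778 in PH20_TG1 to PH20_TG4, and 1 of 8, Pdgfrb, was higher in PH20_TG. Macrophage genes summed to 549 to 718 in Has2_TG and 254 to 517 in Has2_WT, with 4 of 6 higher in Has2_TG, and to 211 to 1749 in PH20_TG and 514 to 916 in PH20_WT, with 0 of 6 called. B cell genes summed to 315 in Has2_WT1, 252 in Has2_WT2, 322 in PH20_WT1 and 119 in PH20_WT3 and to at most 6.11 elsewhere, with 3 of 8 lower in Has2_TG and 4 of 8 lower in PH20_TG. T cell genes were likewise lower, 2 of 6 in Has2_TG and 3 of 6 in PH20_TG, from summed FPKM of up to 97.5 in Has2_WT and 152 in PH20_WT. Skeletal muscle genes summed to 7.92 to 821 in Has2_TG, 23.4 to 105 in Has2_WT, 10.5 to 273 in PH20_TG and 233 to 970 in PH20_WT, with 0 of 9 tested called in the Has2 study and 8 of 9 lower in PH20_TG. Endothelial genes (63.7 to 138, 0 of 6 called in either study) and smooth muscle genes (17.6 to 81.8, Myh11 lower in Has2_TG among 3 tested) are listed for completeness, and epithelial genes such as Krt5 and Krt14 summed to 10.3 or less and were not tested.

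**Figure D1:**
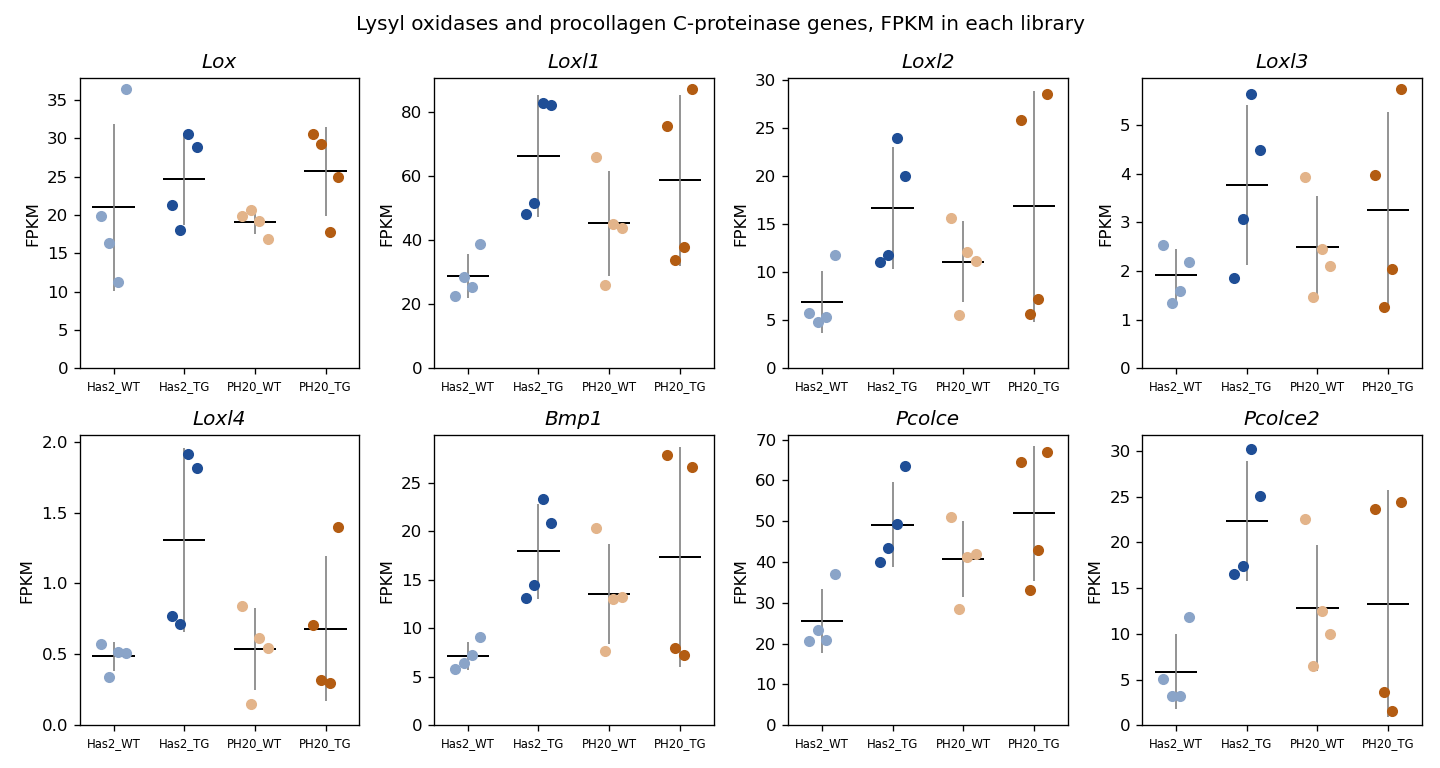
FPKM (vertical axes, from 0) of the 8 genes in each of the 16 libraries, with points for libraries 1 to 4 of a group from left to right, a horizontal line for the group mean and a vertical line for the mean ± SD. Has2_TG lies wholly above Has2_WT for Loxl1, Loxl4, Bmp1, Pcolce and Pcolce2, and the PH20_TG libraries spread widely, with libraries 1 and 4 above libraries 2 and 3 for every gene but Lox.

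In Has2_TG iWAT, 7 of the 8 genes rose against littermate controls at the unadjusted threshold of 0.05 that the study used, by 1.83-fold to 4.26-fold, and Lox was the exception. All 3 genes of C-propeptide removal and 4 of the 5 lysyl oxidases were among them. The background was 6.25% of the 12606 genes tested. After Benjamini-Hochberg adjustment over all genes, 0 of the 8 remained, against 0.103% of genes, or 13 in all, that did. Every Has2_TG library exceeded every Has2_WT library for 5 of the 8 genes, against 4.08% of all genes. The median log2 change of the 8 was 1.17, and that of all genes tested -0.03.

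Bmp1, the C-proteinase, had 5.84, 6.43, 7.29 and 9.13 FPKM in Has2_WT1 to Has2_WT4 and 13.2, 14.5, 23.3 and 20.9 in Has2_TG1 to Has2_TG4. The lowest transgenic library was thus above the highest control. Its log2 change was 1.29 (SE 0.23, limma adjusted p = 0.0687), a 2.45-fold rise from 7.17 ± 1.43 to 17.9 ± 4.90 FPKM (SD, n = 4), and it ranked 39th of 12606 genes by p-value.

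Pcolce2 changed most in size. The controls had 5.08, 3.20, 3.22 and 11.9 FPKM and the Has2_TG libraries 16.5, 17.4, 30.2 and 25.1. Has2_WT4 stood above the other controls, but still below each Has2_TG library. The log2 change was 2.09 (SE 0.40, limma adjusted p = 0.0776), a 4.26-fold rise with a 95% interval of 1.19 to 2.99 on the log2 scale. The related enhancer Pcolce rose 1.96-fold, with a log2 change of 0.97 (SE 0.22, limma adjusted p = 0.111). Pcolce had 20.6, 23.3, 20.9 and 37.2 FPKM in the controls and 40.1, 43.6, 49.4 and 63.6 in Has2_TG, so these groups did not overlap either.

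Among the lysyl oxidases, Loxl1 was both the most abundant and the one with the smallest p-value. It had 22.7, 28.4, 25.5 and 38.7 FPKM in Has2_WT and 48.2, 51.7, 83.0 and 82.3 in Has2_TG, with no overlap. The change was 1.18 on the log2 scale (SE 0.24, limma adjusted p = 0.0841), or 2.27-fold. Loxl2, which also acts on collagen IV of basement membranes, had 5.71, 4.86, 5.29 and 11.8 FPKM in Has2_WT and 11.1, 11.7, 24.0 and 20.0 in Has2_TG. Here Has2_WT4 reached the level of Has2_TG1 and Has2_TG2, and the groups overlapped. Its log2 change was 1.28 (SE 0.34, limma adjusted p = 0.179), or 2.43-fold.

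The scarce lysyl oxidases rested on fewer reads. Loxl4 had 66, 25, 37 and 41 reads in Has2_WT and 82, 50, 151 and 160 in Has2_TG, or 0.340 to 0.575 and 0.715 to 1.91 FPKM. Its log2 change was 1.15 (SE 0.41, limma adjusted p = 0.357), and the groups did not overlap in FPKM. Loxl3 had 2.54, 1.35, 1.59 and 2.18 FPKM in Has2_WT and 1.86, 3.08, 5.63 and 4.48 in Has2_TG, which overlapped, with a log2 change of 0.87 (SE 0.36, limma adjusted p = 0.450). Both calls depended on single libraries. Loxl3 no longer passed without Has2_WT2, Has2_WT3, Has2_TG2, Has2_TG3 or Has2_TG4 (log2 change 0.64 to 0.93), and Loxl4 no longer passed without Has2_WT2, Has2_TG3 or Has2_TG4 (0.94 to 1.02).

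Lox itself had 19.9, 16.3, 11.3 and 36.5 FPKM in Has2_WT and 21.3, 18.0, 30.6 and 28.8 in Has2_TG. The highest of these 8 libraries was a control, Has2_WT4, and the groups overlapped. The log2 change was 0.33 (SE 0.33, limma adjusted p = 0.803), with an interval from -0.41 to 1.08 that includes 0. Without Has2_WT4, all 8 genes were called, and 880 of 12653 genes were called higher. Lox then also passed the unadjusted threshold, with a log2 change of 0.64. Without Has2_WT3, its lowest control, the change was 0.08, the other end of the range over single libraries left out.

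**Figure D2:**
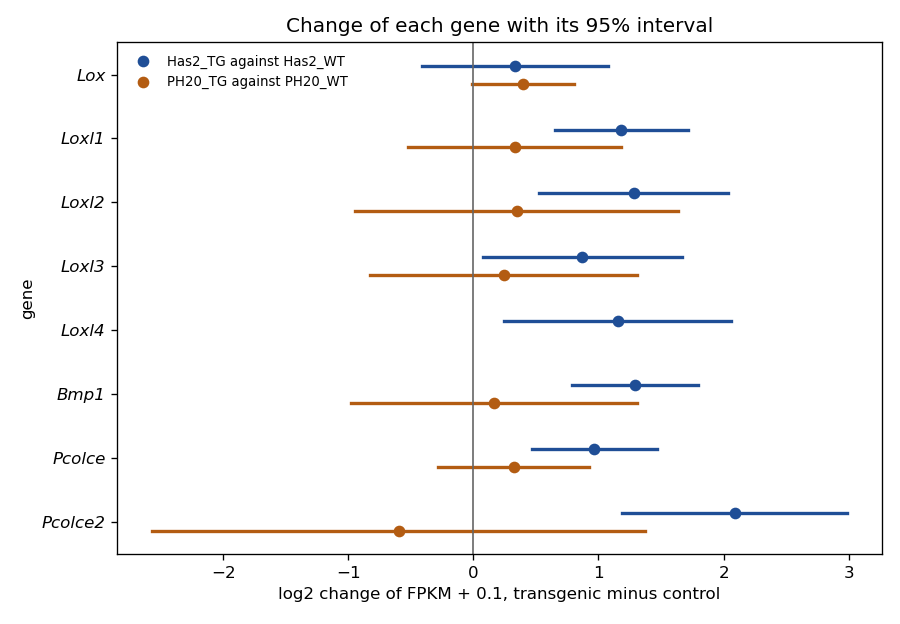
Log2 change of FPKM + 0.1 (horizontal axis) for each gene, transgenic minus control, with the 95% interval of the limma fit as a bar. In the Has2 study 7 intervals lie above 0 and that of Lox spans it, and in the PH20 study all 7 intervals span 0 (Loxl4 was below the minimum of reads there).

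The libraries behind these calls also differed in other genes. Summed progenitor genes did not overlap between Has2_TG and Has2_WT (above), and with the progenitor score of each library as a covariate 0 of the 8 genes rose in Has2_TG, where 4.86% of all genes did. In that fit the log2 change ranged from -0.44 in Loxl3 to 0.65 in Bmp1 for the 7 genes called before. Lox was called lower in Has2_TG, at -1.30, as were 396 of 12606 genes. Since the score ran from 3.37 to 4.33 in Has2_WT and from 4.77 to 5.32 in Has2_TG, genotype and progenitor score cannot be told apart in these 8 libraries. B cell genes were high in 2 of the 4 controls. Without these (Has2_WT1 and Has2_WT2), 5 of the 8 genes still rose, where 5.96% of all genes did, and the change of Pcolce2 was 1.78. Loxl3 and Loxl4 no longer passed with these 2 libraries fewer, although their log2 changes of 0.87 and 1.07 were close to those with all libraries. With the skeletal muscle score as a covariate 7 of 8 rose, as before, where 782 of 12606 genes did. The part of the macrophage genes in these results was not tested.

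In PH20_TG iWAT, 0 of the 7 genes tested passed the unadjusted threshold in either direction, where 6.59% of 12532 genes did. No gene of the 7 had groups that did not overlap, against 4.54% of all genes. The log2 change was above 0 for 6 of the 7, and their median was 0.32, against 0.01 for all genes tested. Lox came nearest to the threshold, at 0.40 (SE 0.18, limma adjusted p = 0.731), with 19.9, 20.6, 19.3 and 16.8 FPKM in PH20_WT and 30.6, 29.3, 17.8 and 25.0 in PH20_TG. Of its PH20_TG libraries, only PH20_TG3 lay within the control range, and without it Lox was called at 0.56. With the skeletal muscle score as a covariate the change of Lox was 0.21 and did not pass.

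For the other genes the spread within PH20_TG was the main feature. Pcolce2 had 23.6, 3.66, 1.54 and 24.4 FPKM in PH20_TG1 to PH20_TG4, against 22.5, 6.43, 12.5 and 10.0 in PH20_WT. Libraries 1 and 4 were thus above the controls, and libraries 2 and 3 below them. Its log2 change was -0.60 (SE 0.87, limma adjusted p = 0.887), with an interval of -2.57 to 1.37. Bmp1 had 27.8, 7.95, 7.22 and 26.6 FPKM in PH20_TG and 20.3, 7.68, 13.0 and 13.2 in PH20_WT, with libraries 1 and 4 above the controls, library 3 below them and library 2 near the lowest control, and a log2 change of 0.17 (SE 0.50, limma adjusted p = 0.956).

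Loxl1 had 75.6, 34.0, 38.0 and 87.3 FPKM in PH20_TG and 66.0, 25.9, 45.1 and 44.0 in PH20_WT (log2 change 0.33, SE 0.38, limma adjusted p = 0.857). Loxl2 had 25.9, 5.69, 7.25 and 28.6 FPKM in PH20_TG and 15.6, 5.51, 12.1 and 11.1 in PH20_WT, a log2 change of 0.35 (SE 0.57). PH20_TG1 and PH20_TG4 exceeded PH20_TG2 and PH20_TG3 for 7 of the 8 genes, all but Lox. The same 2 libraries had the higher progenitor and macrophage sums and the lower adipocyte sums. Macrophage sums were 1749, 211, 338 and 675 in PH20_TG1 to PH20_TG4, and adipocyte sums 5520, 9966, 10155 and 6545. Has2 was at 3.32, 0.380, 0.0990 and 3.26 FPKM there, against 0.330 to 0.897 in PH20_WT and 1.86 to 3.24 in Has2_TG. PH20_WT1 had a progenitor sum of 767 with Has2 at 0.897. What links these values was not tested. Pcolce had 64.5, 33.0, 43.1 and 67.1 FPKM in PH20_TG and 51.0, 28.5, 41.3 and 42.0 in PH20_WT (log2 change 0.32, SE 0.26). The change of Loxl3 was 0.24 (SE 0.47). Loxl4 was not tested, with 10 to 84 reads in the 8 libraries, and its FPKM of 0.299 to 1.40 in PH20_TG overlapped the 0.151 to 0.840 of PH20_WT.

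With the progenitor score as a covariate, 6 of the 7 genes were called higher in PH20_TG, all but Pcolce2, with log2 changes from 0.44 in Lox to 0.78 in Loxl2, where 5.24% of all genes were called higher in that fit. The call of 0 genes thus changed once the progenitor score entered the fit, and this score ranged from 2.82 to 5.34 in PH20_TG and from 3.72 to 5.38 in PH20_WT. Without the 2 controls that hold B cell genes, PH20_WT1 and PH20_WT3, 0 of 7 were called. In that fit 305 of 12175 genes were higher and 245 lower in PH20_TG.

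Whether the response differed between the studies was tested as the difference of the 2 changes over all 16 libraries. Of the 8 genes 1, Pcolce2, passed the unadjusted threshold, where 7.70% of 12593 genes did. Its change in the Has2 study exceeded that in the PH20 study by 2.69 on the log2 scale (SE 1.03, limma adjusted p = 0.607). For Bmp1 the difference was 1.12 (SE 0.59, limma adjusted p = 0.689) with an interval from -0.13 to 2.37. For Lox it was -0.06 (SE 0.41), with an interval from -0.93 to 0.80. The remaining genes lay between 0.63 and 0.93, all with intervals that include 0. After adjustment 0 of the 8 passed, and 1 of 8 at the unadjusted threshold is near the share of all genes. A difference between the studies was thus not shown for these genes. Without PH20_WT2 or without PH20_TG4, 4 genes passed (Loxl1, Bmp1, Pcolce and Pcolce2). Over all genes, 598 with a positive and 561 with a negative difference passed of 12614 without PH20_WT2. Without PH20_TG4 these were 633 and 474 of 12607. With the progenitor score as a covariate 0 of the 8 passed, where 363 and 370 of 12593 genes did.

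The control groups, both littermate Apn-rtTA mice on the same diet, were compared in the same fit. In Has2_WT, 6 of the 8 genes had lower levels than in PH20_WT, but only Pcolce passed the unadjusted threshold, where 4.66% of all genes did so in this direction, and 0 of 8 passed after adjustment. Pcolce was at 25.5 ± 7.87 FPKM in Has2_WT and 40.7 ± 9.28 in PH20_WT (SD, n = 4), a log2 difference of -0.69 (SE 0.26, limma adjusted p = 0.416), and it did not pass without PH20_WT1 (-0.57). The difference was -0.85 (SE 0.41) for Bmp1 and -1.20 (SE 0.73) for Pcolce2, neither past the threshold, and it was 0.0028 for Lox and 0.012 for Loxl4. Line, litter and study cannot be told apart in this comparison. Set side by side, the ranges of Has2_TG and PH20_WT overlapped for all 8 genes, as in Bmp1 (13.2 to 23.3 and 7.68 to 20.3 FPKM) and Pcolce2 (16.5 to 30.2 and 6.43 to 22.5 FPKM).

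**Figure D3:**
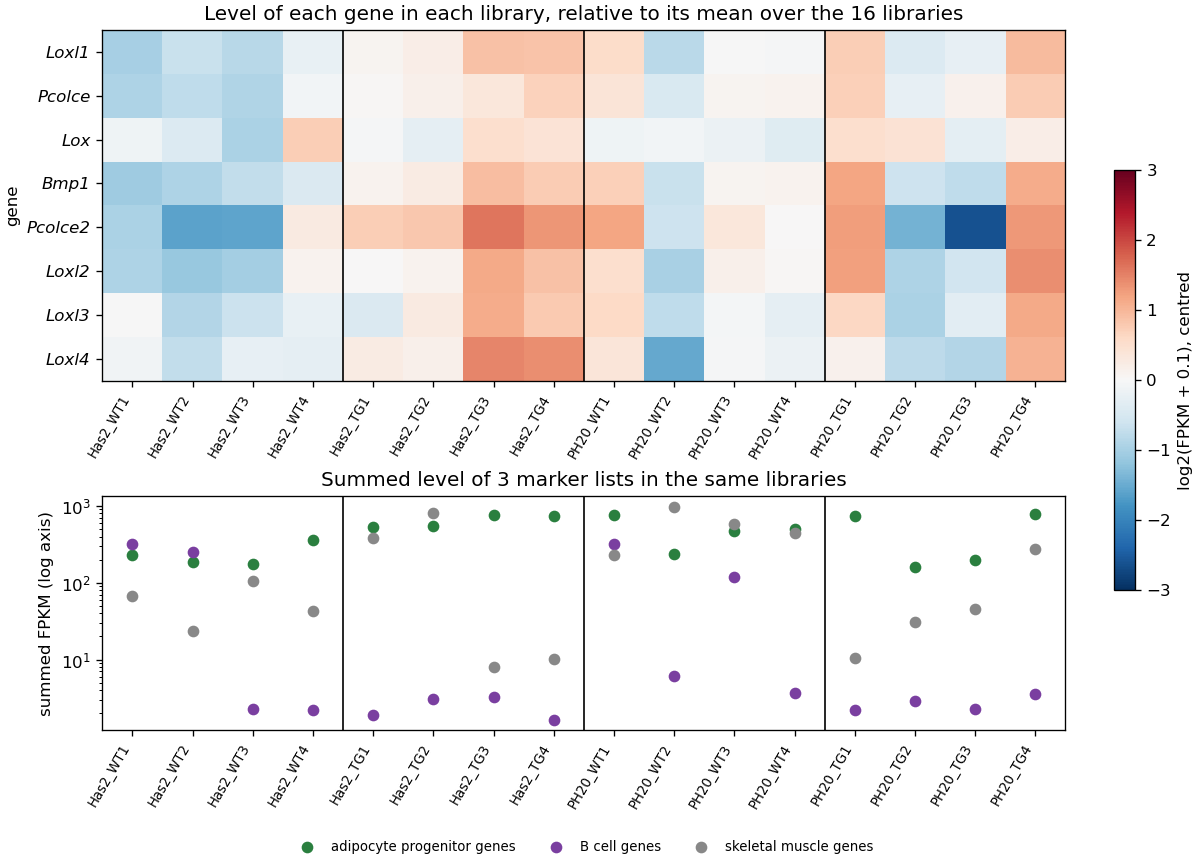
The upper panel shows log2(FPKM + 0.1) of each gene (rows) in each library (columns), minus its mean over the 16 libraries, and the lower panel the summed FPKM of 3 marker lists on a log axis in the same libraries. Has2_TG3, Has2_TG4, PH20_TG1 and PH20_TG4 are above the mean for all 8 genes, and summed progenitor genes are at 732 to 778 in these. The sum is also high in PH20_WT1, at 767, where Lox is below its mean.

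Ratios between genes of one library, here taken on FPKM + 0.1 throughout, depend little on the scaling between libraries. In each study 4 were compared. Pcolce2 made up a larger part relative to Pcolce in Has2_TG. The ratio of their FPKM + 0.1 was 0.250, 0.141, 0.158 and 0.322 in Has2_WT and 0.414, 0.401, 0.613 and 0.396 in Has2_TG, without overlap. The difference was 1.12 on the log2 scale, or 2.18-fold (two-sided exact permutation p = 0.0286, the smallest that 4 libraries against 4 can give, and 0.114 adjusted over the 8 tests). Lox fell relative to Loxl1, from ratios of 0.878, 0.576, 0.444 and 0.943 in Has2_WT to 0.443, 0.349, 0.369 and 0.351 in Has2_TG. The highest ratio in Has2_TG lay just below the lowest in Has2_WT, but this order rested on the added 0.1. In plain FPKM, Has2_TG1 (Lox 21.3, Loxl1 48.2) had a slightly higher ratio than Has2_WT3 (11.3 and 25.5), so the groups overlapped. The log2 difference was -0.85 (exact permutation p = 0.0286, adjusted p = 0.114), and this p-value too was taken with the added 0.1.

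For Bmp1 and Loxl1, no change relative to the collagen gene Col1a1 was detected, and the other enzymes were not set against it. The ratio of Bmp1 to Col1a1, the gene of the main chain of type I collagen, was 0.0641 to 0.0992 in Has2_WT and 0.0511 to 0.0771 in Has2_TG, a log2 difference of -0.24 (exact permutation p = 0.286, adjusted p = 0.549). For Loxl1 to Col1a1 the ranges were 0.246 to 0.386 and 0.181 to 0.275, with a log2 difference of -0.35 (exact permutation p = 0.229, adjusted p = 0.549). In the PH20 study none of the 4 ratios differed past the threshold, with exact permutation p-values of 0.343 to 0.971. The ratio of Pcolce2 to Pcolce was 0.367, 0.114, 0.0381 and 0.365 in PH20_TG and 0.229 to 0.443 in PH20_WT, with libraries 2 and 3 below all controls and a log2 difference of -0.92.

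**Figure D4:**
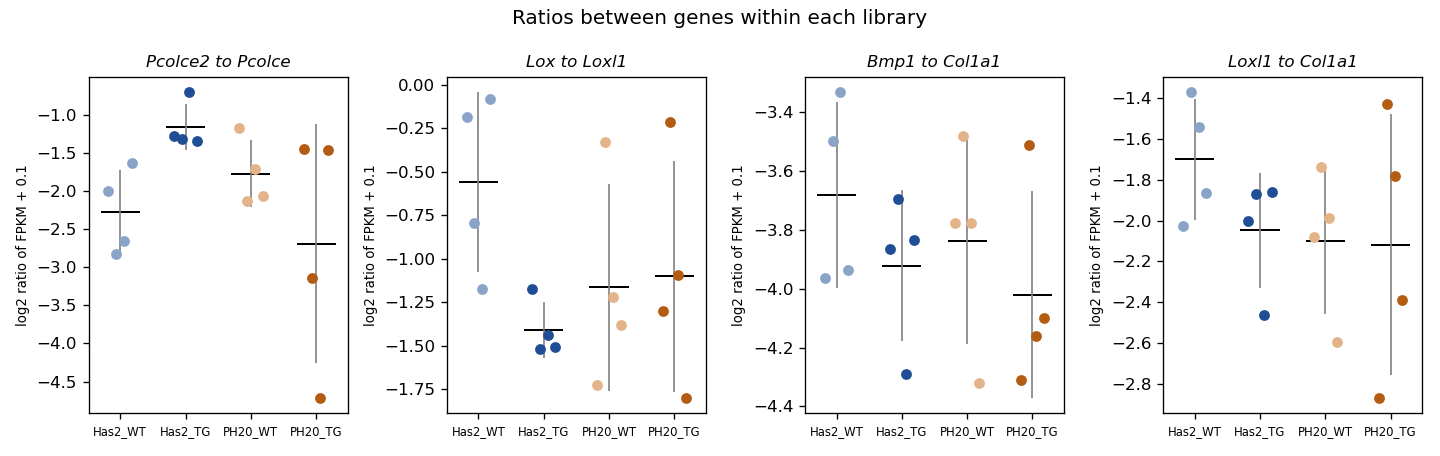
Log2 ratios of FPKM + 0.1 (vertical axes, each with its own range) between 2 genes of the same library, with a horizontal line for the group mean and a vertical line for the mean ± SD. The groups of the Has2 study separate for Pcolce2 to Pcolce and overlap for both ratios to Col1a1. For Lox to Loxl1 they separate by a margin that rests on the added 0.1.

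The substrates of these enzymes moved in the same study. Of 8 fibrillar collagen genes tested, 5 rose in Has2_TG and 0 fell, with a median log2 change of 0.79 over the list. Over all genes tested, 6.25% were called higher in Has2_TG. Col1a1, for the α1 chain of type I collagen, went from 95.4 ± 31.6 to 285 ± 126 FPKM (log2 change 1.53, SE 0.32, limma adjusted p = 0.0849), and Col1a2, for its α2 chain, from 62.7 ± 23.4 to 170 ± 58.0 (1.44, SE 0.29). Col3a1, for type III collagen, changed by 1.00 (SE 0.27) and its groups overlapped. In the PH20 study 1 of the 8 was called, where 6.59% of all genes were. This was Col5a3, a minor chain of type V collagen and a different chain from the 5 of the Has2 study. It rose from 70.7 ± 2.18 to 111 ± 6.66 FPKM (SD, n = 4), a log2 change of 0.65 (SE 0.11, limma adjusted p = 0.506).

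Elastin and the proteins on which lysyl oxidases and their substrates are arranged rose in 6 of 7 cases in Has2_TG. Of all genes 6.25% rose, and on this list 0 were lower, with a median log2 change of 0.88. Fn1, the gene of fibronectin, changed by 2.19 (SE 0.42, limma adjusted p = 0.0776), Fbn1, for the microfibril protein fibrillin-1, by 1.93 (SE 0.38), and Efemp2, for fibulin-4, which brings Lox to elastin, by 0.93 (SE 0.21). In the PH20 study 0 of 7 were called, where 6.59% of all genes were. Other substrates of the C-proteinase rose in 4 of 7 cases in Has2_TG, and in 0 of 7 in PH20_TG, where 401 of 12532 genes were called higher. Dcn, for the small proteoglycan decorin, which is also on the list of progenitor genes, changed by 1.58 (SE 0.31), and Ogn, for osteoglycin, by 1.69 (SE 0.36).

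Of 6 regulators of the C-proteinase or its activation, 3 rose in Has2_TG and 0 in PH20_TG. Over all genes, 6.25% were called higher in Has2_TG and 401 of 12532 in PH20_TG. Sfrp2, a secreted Frizzled-related protein that has been described both as an enhancer and as an inhibitor of procollagen cleavage, rose from 10.4 ± 5.08 to 53.8 ± 18.2 FPKM (SD, n = 4). Its log2 change of 2.42 (SE 0.34) was the only one on the enzyme and substrate lists to pass the adjusted threshold (limma adjusted p = 0.0384). The proprotein convertase genes Pcsk6 (0.78, SE 0.20) and Pcsk5 (0.60, SE 0.20) also rose, with no overlap between the groups. Of 4 genes of collagen lysine hydroxylation, which affects the kind of cross-link, 1 rose in Has2_TG, Fkbp10 (0.70, SE 0.30), a chaperone of the hydroxylase Plod2. The hydroxylase genes themselves, Plod1 (0.11, SE 0.22) and Plod2 (-0.22, SE 0.42), did not pass there.

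In PH20_TG, on the other hand, Plod1 rose by 0.42 (SE 0.12, limma adjusted p = 0.664) and Plod2 by 0.68 (SE 0.23, limma adjusted p = 0.692), both without overlap between the groups. The copper chaperone gene Atox1 rose there too, by 0.54 (SE 0.21), as 1 of 2 copper genes tested. In PH20_TG 401 of all 12532 genes tested were called higher. None of the 3 tested in the Has2 study was called: Atp7a, the copper pump that loads lysyl oxidases, changed by -0.59 (SE 0.55), Atox1 by -0.20 (SE 0.43) and the importer gene Slc31a1 by -0.03 (SE 0.21). Of the N-proteinases, which cut the other propeptide, Adamts2 and Adamts14 were tested and 0 of 2 were called in the Has2 study (0.68, SE 0.35, and 0.44, SE 0.26), while Adamts14 rose by 1.00 (SE 0.36, limma adjusted p = 0.702) in PH20_TG. The Bmp1 relatives Tll1 and Tll2 were below the minimum of reads in both studies.

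Over the 16 libraries, the genes whose log2 levels ran most parallel to each member included collagens for Loxl2 and other members for Loxl1, Bmp1 and Pcolce. These correlations are descriptions over 12593 genes, and the libraries share group differences and cell content. Loxl2 was closest to Col3a1 (Pearson r = 0.98), Col1a2 (0.98) and Col1a1 (0.97). Loxl1 was closest to Capn5, Shc2 and Bmp1 (0.97, 0.97 and 0.96), Bmp1 to Ptgis, Fgl2 and Loxl1 (0.97, 0.97 and 0.96), and Pcolce to Loxl1, Mmp3 and Ctsk (0.95, 0.94 and 0.93). The other 5 genes had no member among their 3 closest. Pcolce2 was closest to Pla1a, Efemp1 and Galnt16 (each 0.98), Loxl3 to P3h3, Gas1 and Tmeff2 (0.96, 0.94 and 0.93), and Loxl4 to P3h3, Fzd2 and Cadm3 (0.91, 0.89 and 0.89). Lox had the lowest values of the 8, with Lbp (0.88), Akap12 (0.87) and Pea15a (0.87), and neither a collagen nor another member was among its closest genes.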

How the data were processed

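Total RNA of iWAT was sequenced from TruSeq libraries. The submitters' processing notes name FastQC (version 0.11.9), STAR (version 2.7.9a), MultiQC (version 1.12) and DESeq2, and the build GRCm38. The authors deposited FPKM values per gene and library. Multiplied by gene length and library total these gave whole reads in 100% of values (tolerance 0.01), so depth is known. No library was a duplicate of another: over 120 pairs, chi-square divided by its degrees of freedom was at least 27.5. The library total behind the FPKM was 0.886 to 1.14 times the reads on genes, a scaling by the authors.

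The 8 libraries of a study were fitted in R (4.3.3) with limma (3.58.1) to log2(FPKM + 0.1), two-sided and with a variance trend, leaving out genes that averaged under 50 reads. Fold changes are on this scale and understate those of low genes. Genes at an unadjusted p-value under 0.05 were called, with Benjamini-Hochberg adjustment over all genes beside it. One fit of the 16 libraries gave the difference between studies and between controls. Ratios of FPKM + 0.1 were tested by exact permutation. The labels do not say more of the replicates than that they are separate mice or samples, and p-values measure the spread between them. The score of a marker list is its mean log2(FPKM + 0.1). The procedure was tested on simulated data.

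The members and lists were chosen with earlier results of these data known. Named were the members, Has2 and Spam1, in each list up to 3 genes with the smallest p-value in the Has2 study and any called in the PH20 study, and the 3 genes most like each member. One gene that this rule names is not reported here. Alternatives were each library left out, the muscle, B cell or progenitor score as a covariate, the replicate number as a block, one fit of 16 libraries, voom weights, no trend, quantile normalization, median-of-ratios scaling, a pseudocount of 1, and a filter at a mean FPKM of 1 or none. Leaving out the 2 controls with B cell genes was added after seeing the data. Overlaps with other genes were read from GENCODE M21, not the release the authors used.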

Additional observations from a re-analysis of the deposited data

Results flagged for a closer look

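In 2 of 32 groups of 4 libraries (8 genes in 4 groups), 1 library lay far from the other 3, by a gap above Dixon's critical share of the group's range. Chance alone would place about 1 in 20 groups there. Both cases were Has2_WT4, at 11.8 FPKM for Loxl2 and at 37.2 FPKM for Pcolce, each above the other Has2_WT libraries. The same library had the highest progenitor sum of its group, 359. Without it 8 of 8 genes were called in the Has2 study, where 880 of 12653 genes rose. The log2 change of Lox was then 0.64, while single libraries left out moved this change between 0.08 and 0.64.

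The change of Pcolce2 differed between the studies by 2.69 on the log2 scale, past the unadjusted threshold in the test of the difference itself (limma adjusted p = 0.607), a threshold that 7.70% of all genes tested passed. It was the only one of the 8 genes to pass, and with the progenitor score as a covariate the difference was 0.40 and did not pass. All 4 Has2_TG libraries were above their controls for this gene, while 2 of the 4 PH20_TG libraries were above and 2 below theirs.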

How the results depend on the processing

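Median-of-ratios scaling, quantile normalization, a pseudocount of 1 and no variance trend left the number of genes called in the Has2 study (7) and in the PH20 study (0) as it was. With no minimum of reads it was 6 of 8 in the Has2 study, where Loxl4 no longer passed. With a mean FPKM of at least 1 it was 6 of 7, as Loxl4 was not tested there. With voom weights or the B cell score it was 5 of 8, and with one fit of all 16 libraries 6 of 8. With the progenitor score as a covariate 0 genes were higher and Lox was called lower in the Has2 study. In the PH20 study 6 were called, and 0 in the difference between studies. With it, the log2 change in the Has2 study turned to -1.30 for Lox, -0.20 for Loxl2 and -0.44 for Loxl3, the difference between studies turned to -0.14 for Bmp1, and Pcolce2 in the PH20 study turned to 0.070, as it did with the B cell score (0.054). With the skeletal muscle score the difference for Lox turned to 0.24. With quantile normalization 2 genes differed between the control groups.

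Leaving out 1 library gave 5 to 8 genes called in the Has2 study, 0 to 1 in the PH20 study (1, Lox, without PH20_TG3), 1 to 4 for the difference and 0 to 3 between controls (0 without PH20_WT1, 3 without PH20_WT2). Over all genes, 619 of 12642 (without Has2_TG3) to 880 of 12653 (without Has2_WT4) rose in the Has2 study. For the difference, 2 genes were called without Has2_WT4 or PH20_TG1, and 4 without PH20_WT2 or PH20_TG4. Changes in the PH20 study crossed 0 for Bmp1 (-0.15 to 0.49), Loxl2 (-0.020 to 0.75), Loxl3 (-0.10 to 0.60) and Pcolce2 (-1.15 to 0.15), as did the difference for Lox (-0.32 to 0.25). The ratio of Pcolce2 to Pcolce in the Has2 study stayed between 0.94 and 1.34 and that of Lox to Loxl1 between -1.05 and -0.69, but 4 libraries against 3 cannot go below an exact permutation p of 0.0571. In the PH20 study the ratio of Lox to Loxl1 ran from -0.23 to 0.34 and that of Loxl1 to Col1a1 from -0.25 to 0.23. The cause of these changes was not tested.

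Deviations of libraries with the same replicate number correlated by -0.18 to 0.13 in the Has2 study and by -0.04 to 0.42 in the PH20 study. In the PH20 study, numbers 1 and 2 correlated by 0.35 and 0.42, against at most 0.02 and 0.05 with another number. Numbers 3 and 4 correlated by -0.03 and -0.04, against up to 0.31 and 0.24 with another number. The numbers were not taken as pairs in the main fits, and for the PH20 study these values do not settle it. With the replicate number as a block, 6 genes were called in the Has2 study (Loxl3 lost), 1 in the PH20 study (Lox), 2 for the difference and 2 between controls. Over all 12532 genes of the PH20 study, 633 were called higher and 669 lower with the block. For the ratios of Pcolce2 to Pcolce and of Lox to Loxl1 in the Has2 study, the block left the differences at 1.12 and -0.85, with p = 0.125, the smallest that exact sign flips of 4 pairs can give. Depth limits Loxl4 most, with as few as 10 reads.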
